A study of Mus musculus with 4 samples.

Results

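The 10 genes described here encode inflammatory cytokines (Tnf, Il1a, Il1b and Il6), the interleukin-1 receptor antagonist (Il1rn), inhibitors of NF-kB (Nfkbia and Tnfaip3) and enzymes induced by NF-kB (Ptgs2, Nos2 and Sod2). They were chosen by symbol as a textbook set of NF-kB targets to set against the interferon genes of the same libraries. Earlier results of these data were known when they were chosen. All 10 were found under these symbols among the 53465 genes of the count files. RNA-Seq was done on primary (1°) mouse oligodendroglial cells (OGCs) from forebrain, which were purified by shake-off and depletion of microglia and differentiated for 3 days. The ctrl cells carried Zfp276 flox/flox alleles, and the Zfp276cko cells carried the same alleles together with Sox10::Cre tg, a transgene that is active in the oligodendroglial lineage. Per the methods of the study, each genotype had 2 independent preparations, each preparation pooled cells of 3 mice at P2-P4, and a Cre-dependent tdTomato reporter allele was crossed in to identify Zfp276cko newborns. The mice were of a mixed C3H and C57Bl/6J strain background.

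NF-kB is a family of dimeric transcription factors that IkB proteins hold in the cytoplasm. Receptors for TNF, for interleukin-1 and for microbial products activate the IkB kinases, IkB is degraded, and NF-kB enters the nucleus. Among its targets are the cytokines that started the signal and the inhibitors that end it, so that the pathway feeds back on itself. In the brain, microglia are the best known source of Tnf and the interleukin-1 cytokines, while astrocytes and oligodendroglial cells carry receptors for them. Interferons act through other factors, namely STAT and IRF proteins, although many genes respond to both pathways.

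The kappaB consensus, a 10-letter motif to which NF-kB dimers bind, was looked for on both strands of the 250 bases before each start site in RefSeq (GRCm38.p6, the assembly of mm10). RefSeq promoters were matched for 9 members, Nos2 being the other member, and came to 12 in number. Promoters of 4 members held a match, which is 33.3% of the 12 promoters against 3.9% of 32851 promoters of all genes and 16% of 25 promoters of interferon genes. In the list of other NF-kB pathway genes described below, 27% of 89 promoters held a match. With a looser motif, any base being allowed at position 6, the shares were 7.25% of all promoters and 24% for the interferon genes. That of the members stayed at 33.3%, and that of the pathway list was 32.6%, so the share was not particular to the members. The matches lay at Il6, Nfkbia, Tnfaip3 and Sod2, and these stretches are shown because they hold the letters that the factor named by the gene set recognises. Capitals mark the matches, and the other letters are up to 30 bases on either side and, in Tnfaip3, the whole stretch between its matches, read 5′ to 3′ on the strand of the gene.
Il6 (chr5:30013040-30013109, plus strand): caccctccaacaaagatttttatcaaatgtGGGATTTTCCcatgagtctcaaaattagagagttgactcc
Nfkbia (chr12:55492648-55492706, minus strand): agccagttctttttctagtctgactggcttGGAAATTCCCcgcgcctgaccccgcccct
Tnfaip3 (chr10:19015411-19015565, minus strand): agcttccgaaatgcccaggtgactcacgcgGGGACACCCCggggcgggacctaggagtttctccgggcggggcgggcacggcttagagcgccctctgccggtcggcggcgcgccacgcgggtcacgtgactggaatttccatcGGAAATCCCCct
Sod2 (chr17:13007726-13007795, plus strand): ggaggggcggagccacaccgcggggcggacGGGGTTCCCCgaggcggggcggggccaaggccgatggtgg

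In Il6 the match began 44 bases before the start site, in Nfkbia 29 bases, and in Sod2 83 bases before it. Tnfaip3 had 2 matches, which began 125 and 12 bases before its start. These start sites are those of RefSeq, whereas the gene positions given below are those of GENCODE. The stretches shown for Sod2 and Tnfaip3 lie inside the GENCODE positions of these genes, and those for Il6 and Nfkbia lie outside them. A second motif, the core of the interferon-stimulated response element (ISRE), was matched in 0 of the 12 member promoters, in 9 of 25 promoters of interferon genes and in 2.98% of all promoters. The absence of a match says only that these letters were not in this window.

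Counted reads ranged from 21068322 to 26599809 per library, and 15766 genes passed the filter on low counts, among them all 10 members. Normalized counts below are counts scaled to the mean effective library size of the 4 libraries. Zfp276, the deleted gene, gave 1648 and 2230 normalized counts for ctrl (replicates 1 and 2, the order used throughout) against 490 and 503 for Zfp276cko, so the libraries matched their labels. The ctrl replicates stood apart from each other. They differed 2-fold or more in 12.8% of 14324 genes averaging 20 or more normalized counts, whereas the Zfp276cko replicates did so in 0.335%. With 2 libraries against 2, an exact permutation test (two-sided) of a single gene cannot go below p = 0.333, so the comparison between genotypes rests on edgeR's quasi-likelihood test across all genes. Calls required 3 things together, namely adjusted p ≤ 0.05, a log2 fold change (log2FC, Zfp276cko over ctrl) of 0.6 or more in either direction, and 20 or more normalized counts on average.

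Most members had higher levels in Zfp276cko than in ctrl cells, and standard errors were smallest for Sod2, Tnfaip3, Nfkbia and Il1rn and largest for the cytokines Il1b, Il1a and Tnf. Without overlap of the genotypes, 8 of the 10 members were higher in Zfp276cko libraries and 0 were lower. Over all tested genes this was so for 26.8% above and 23.7% below. At the thresholds given, 0 of the 10 members were called by the quasi-likelihood test, as were 0% of all tested genes. An unadjusted p ≤ 0.05 from the same test was found for 5 members, all higher (Il1rn, Tnfaip3, Sod2, Il6 and Nfkbia), against 8.33% of all genes higher and 7.3% lower. DESeq2 called Il1rn and Tnfaip3 higher, 2 of 10 members, where it called 2.68% of all genes higher and 2.07% lower. The median log2FC of the members was 0.95, and that of all tested genes was −0.0013.

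**Figure D1:**
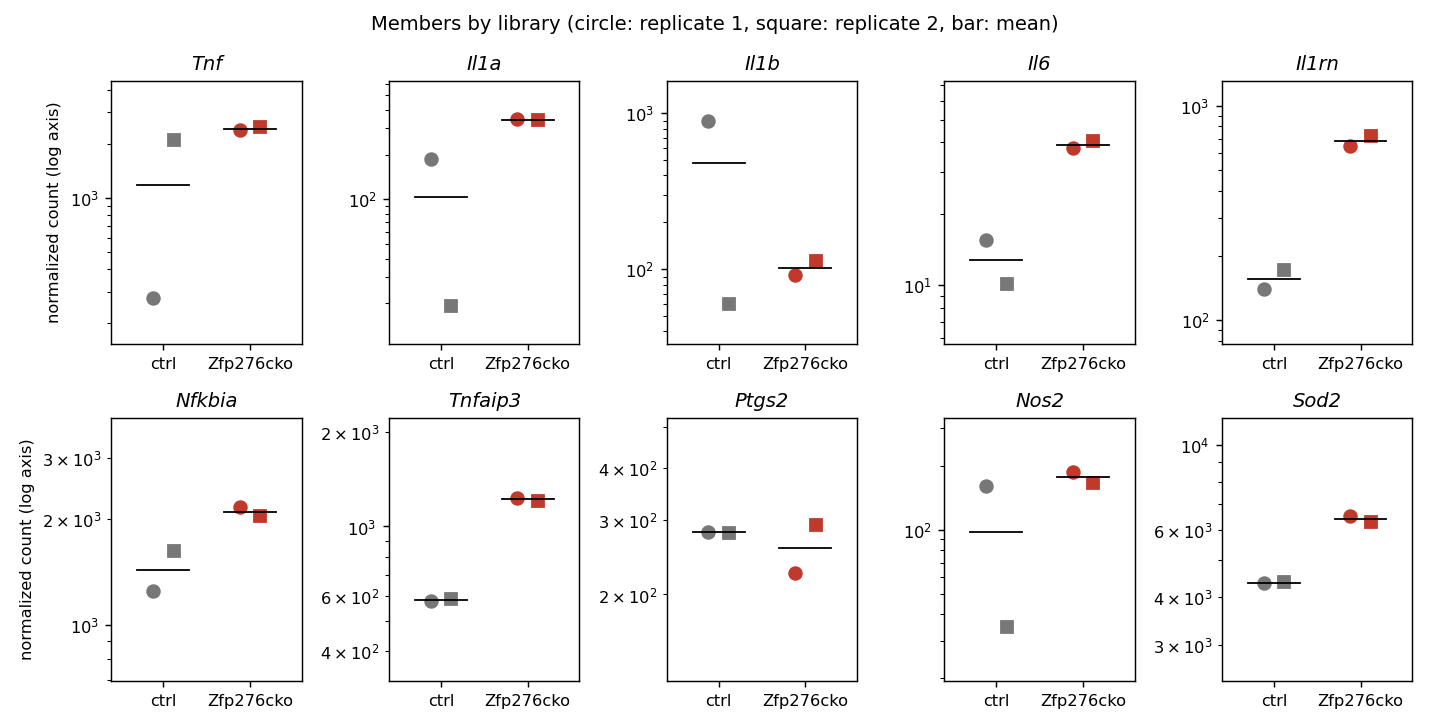
Normalized counts of the 10 members in each library (log axis, own range per gene), with ctrl in grey and Zfp276cko in red, circles for replicate 1, squares for replicate 2 and bars for the genotype means. The ctrl replicates lie close together in Tnfaip3, Ptgs2 and Sod2 and far apart in Tnf, Il1a, Il1b and Nos2, while the Zfp276cko replicates lie close together in all members, with Ptgs2 the widest at 1.30-fold.

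Tnf encodes tumour necrosis factor, the cytokine that activates NF-kB through its receptors Tnfrsf1a and Tnfrsf1b (chromosome 17 of mm10, 35199381 to 35202007). Normalized counts were 275 and 2099 in ctrl against 2384 and 2496 in Zfp276cko. The Zfp276cko libraries were above both ctrl libraries, but ctrl replicate 2 was close to them and ctrl replicate 1 was 7.62-fold lower than ctrl replicate 2. This gave a log2FC of 1.04 ± 0.93 (SE; adjusted p = 0.644 by edgeR), with a 95% interval from −1.49 to 3.57. Omitting ctrl replicate 1 gave 0.22, and omitting ctrl replicate 2 gave 3.14.

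Il1a and Il1b encode interleukin-1 alpha and beta, cytokines that signal through a common receptor. Il1a (chromosome 2, 129299610 to 129309972) had 188 and 19.1 normalized counts in ctrl against 347 and 341 in Zfp276cko. Both Zfp276cko libraries were above both ctrl libraries, and ctrl replicate 2 was the low library here. The log2FC of Il1a was 1.74 (SE 1.02, adjusted p = 0.482). Omitting ctrl replicate 1 gave 4.16 for Il1a, and omitting ctrl replicate 2 gave 0.86. Il1b (chromosome 2, 129364570 to 129371139) had 896 and 59.6 normalized counts in ctrl against 92.3 and 113 in Zfp276cko. The Zfp276cko libraries lay between the ctrl libraries, which were 15.0-fold apart. Its log2FC was −2.22 ± 1.26 (SE; adjusted p = 0.472). It turned to 0.78 when ctrl replicate 1 was omitted and was −3.14 when ctrl replicate 2 was, so no direction could be given for Il1b.

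Il6 encodes interleukin-6, a cytokine of the gp130 family (chromosome 5, 30013114 to 30019981). It was the least counted member, with 13 and 9 counts in ctrl against 42 and 47 in Zfp276cko. Scaled to library size these were 15.4 and 10.1 against 38.0 and 40.4 normalized counts, without overlap of the genotypes. This gave a log2FC of 1.61 ± 0.36 (SE; adjusted p = 0.186), and it stayed between 1.33 and 1.94 with each library left out in turn. With 9 counts in ctrl replicate 2, it would not pass a filter of 10 counts in every library.

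The antagonist of the interleukin-1 receptor, Il1rn (chromosome 2, 24336853 to 24351494), showed the highest log2FC among the members. It had 139 and 171 normalized counts in ctrl against 651 and 724 in Zfp276cko, with means of 155 ± 22.7 and 687 ± 52.1 (SD, n = 2). All Zfp276cko values were far above all ctrl values. The level in Zfp276cko cells was 4.44-fold that in ctrl cells, with a log2FC of 2.15 ± 0.18 (SE; adjusted p = 0.0962 by edgeR) and a 95% interval from 1.66 to 2.64. DESeq2 called Il1rn (log2FC 2.13, adjusted p = 3.17e-14). Values with single libraries omitted lay between 2.01 and 2.30. Il1a and Il1b, which Il1rn competes with at the receptor, thus varied more between the ctrl replicates than Il1rn did, by 9.81-fold and 15.0-fold against 1.23-fold.

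Nfkbia encodes IkB-alpha, which binds NF-kB in the cytoplasm and is itself a rapid NF-kB target (chromosome 12, 55489410 to 55492647). It had 1249 and 1629 normalized counts in ctrl against 2164 and 2043 in Zfp276cko. The genotypes did not overlap, with a ratio of the means of 1.46. This gave a log2FC of 0.55 ± 0.16 (SE; adjusted p = 0.242), under the threshold on fold change, and it ranged from 0.37 without ctrl replicate 1 to 0.74 without ctrl replicate 2.

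Tnfaip3 encodes A20, a ubiquitin-editing enzyme that ends signalling from the TNF and interleukin-1 receptors (chromosome 10, 19000910 to 19015657). It had 577 and 586 normalized counts in ctrl against 1238 and 1205 in Zfp276cko. The replicates of either genotype were nearly equal and the levels of Zfp276cko cells were 2.10-fold those of ctrl cells. This gave a log2FC of 1.07 ± 0.10 (SE; adjusted p = 0.0962 by edgeR), with a 95% interval from 0.80 to 1.34. DESeq2 called it with 1.06 and an adjusted p of 4.72e-08. With each library left out, the values lay between 1.05 and 1.09, the narrowest range among the members.

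Among the enzymes, Sod2 encodes the superoxide dismutase of mitochondria (chromosome 17, 13006846 to 13040063). It was the most counted member, with 4348 and 4365 normalized counts in ctrl against 6529 and 6285 in Zfp276cko. The genotypes were well separated and the ctrl replicates were within 1.004-fold of each other. This gave a log2FC of 0.56 ± 0.09 (SE; adjusted p = 0.139 by edgeR). DESeq2 gave an adjusted p of 6.73e-04 for Sod2, but its log2FC of 0.54 was under the threshold of 0.6.

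Nos2, the inducible nitric oxide synthase (chromosome 11, 78920787 to 78960254), had 160 and 34.9 normalized counts in ctrl against 187 and 166 in Zfp276cko. Both Zfp276cko libraries were higher, but ctrl replicate 1 came close to them. This gave a log2FC of 0.86 ± 0.74 (SE; adjusted p = 0.628). Omitting ctrl replicate 1 gave 2.34 for Nos2, and omitting ctrl replicate 2 gave 0.13. Ptgs2, the inducible cyclooxygenase of prostaglandin synthesis (chromosome 1, 150100031 to 150108227), had 281 and 280 normalized counts in ctrl against 224 and 292 in Zfp276cko. The genotypes overlapped, and the log2FC was −0.12 ± 0.20 (SE; adjusted p = 0.817), with a 95% interval from −0.67 to 0.43. Ptgs2 was therefore the member with nearly equal ctrl replicates and no difference detectable at this number of libraries.

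**Figure D2:**
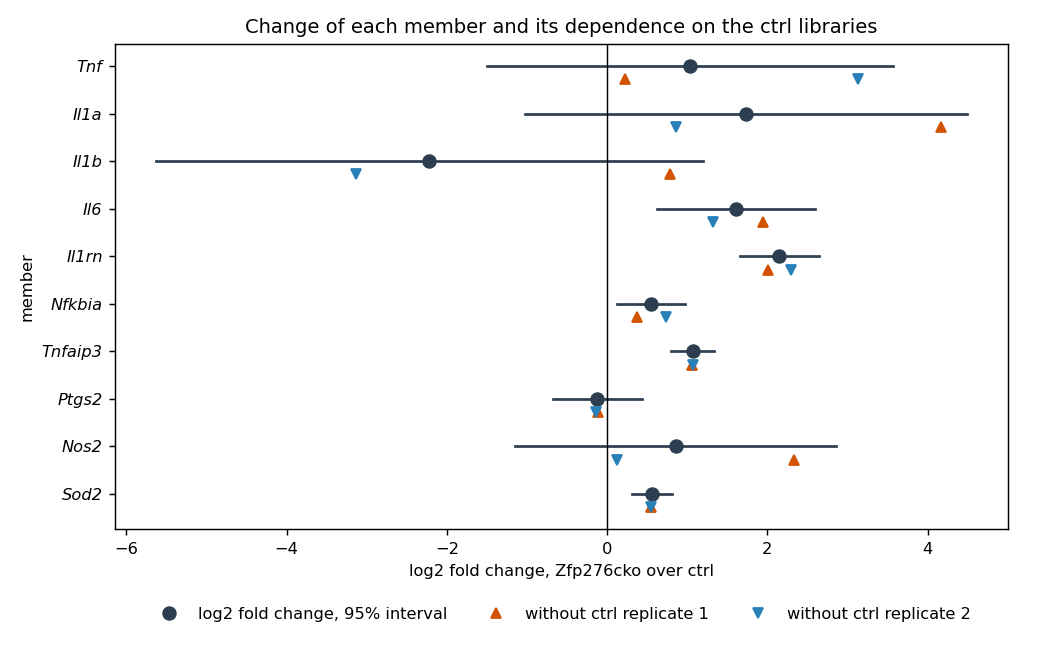
Log2 fold change (Zfp276cko over ctrl) of each member with its 95% interval from edgeR's quasi-likelihood test (circles and lines), and the value without ctrl replicate 1 (upward triangles) or without ctrl replicate 2 (downward triangles). Intervals of Il6, Il1rn, Nfkbia, Tnfaip3 and Sod2 lie above 0, and in Il1b the triangles lie on opposite sides of 0, at 0.78 and −3.14.

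The ctrl libraries thus divided the members. The ctrl library nearer to the Zfp276cko level was replicate 2 in Tnf and replicate 1 in Nos2 and Il1a, although in Il1a it still had 188 normalized counts against 347 and 341, and in Tnfaip3, Sod2, Ptgs2 and Il1rn the ctrl replicates were at most 1.23-fold apart. When ctrl replicate 1 was left out, the quasi-likelihood test called 6 members, all higher, against 10.7% of all genes higher and 6.03% lower. When ctrl replicate 2 was left out, it called 6 members higher and 1 lower (Il1b), against 11.4% of all genes higher and 7.95% lower. In both cases 4 members were called higher, namely Il1a, Il6, Il1rn and Tnfaip3. In these fits the lone ctrl library is assumed to vary like the Zfp276cko libraries.

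Per length of the union of annotated exons, the order of the levels differed between the ctrl replicates. In Zfp276cko cells Tnf was the highest member at 63.6 and 66.6 reads per kb of exon scaled to library depth (RPKM), followed by Nfkbia at 58.8 and 55.5 and Sod2 at 28.5 and 27.5. Il1a (7.70 and 7.56), Tnfaip3 (7.49 and 7.30) and Il1rn (5.14 and 5.73) followed on the same scale, and their ranges did not overlap. Ptgs2 (2.14 and 2.79) and Il1b (2.12 and 2.58) overlapped and could not be ordered, and below them were Nos2 at 1.86 and 1.64 and Il6 at 0.685 and 0.728. In ctrl replicate 1 Il1b had an RPKM of 18.6, above Tnf at 6.64, whereas in ctrl replicate 2 Tnf stood at 54.0 and Il1b at 1.32. Nfkbia, at 30.7 and 42.7, was above Sod2, at 17.2 and 18.4, in both ctrl libraries. Tnf, Nfkbia and Sod2 thus led in ctrl replicate 2 in the same order as in Zfp276cko cells, and ctrl replicate 1 departed from it. Il1rn, at 0.992 and 1.30, was below Ptgs2, at 2.43 and 2.58, in both ctrl libraries and above it in both Zfp276cko libraries. Il1rn exceeded Il1b on this scale in both Zfp276cko libraries. It was far below Il1b in ctrl replicate 1, at 0.992 against 18.6. In ctrl replicate 2 the values were nearly equal, at 1.30 against 1.32.

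Exons of Il1a overlap those of Gm14023 on the opposite strand over 222 nt, and those of Il1b overlap Il1bos over 25 nt. Gm14023 had between 19 and 31 counts per library and Il1bos at most 1, while the strand setting of the counting was not given in the sources used here.

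Genes of the same pathway outside the members were compared in a list of 84 genes, of which 79 passed the filter. Their median log2FC was 0.18. In 36 of the 79 both Zfp276cko libraries were above both ctrl libraries and in 9 below, against 26.8% and 23.7% of all tested genes. These shares are also the background of such counts given below. The quasi-likelihood test called 0 of them, an unadjusted p ≤ 0.05 was found for 24 higher and 3 lower genes, and DESeq2 called 12 higher and 1 lower. Over all tested genes such a p was found for 8.33% higher and 7.3% lower, and DESeq2 called 2.68% higher and 2.07% lower. The shares of the members, 8 of 10 above and 5 of 10 with such a p, were higher than those of this list, a difference that was not tested. The list also holds receptors, adaptors, kinases and subunits. Of its 25 tested targets, the role most like the members, 13 lay above both ctrl libraries and 12 had such a p and were higher. DESeq2 called 8 of these 25 higher, against 2 of the 10 members, so the share with such a p was not particular to the members.

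**Figure D3:**
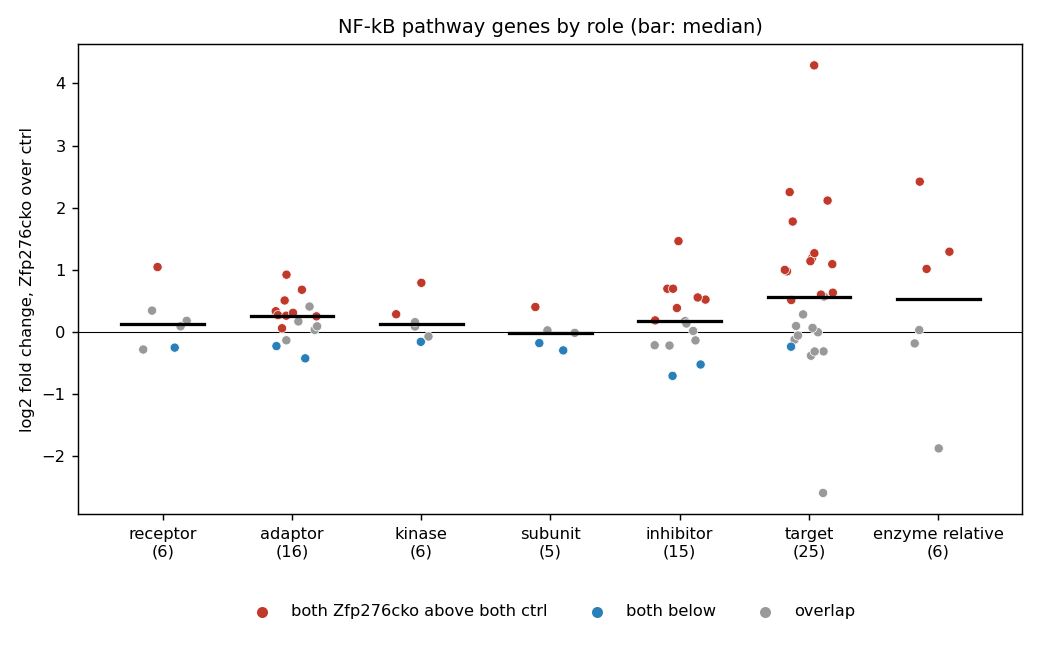
Log2 fold changes (Zfp276cko over ctrl) of the 79 tested NF-kB pathway genes by role, each point a gene and each bar the median of the role, coloured red where Zfp276cko lay wholly above ctrl, blue where wholly below and grey where they overlapped. The targets have a median of 0.57 and the subunits one of −0.01, and the top point among the targets is Csf3, whose ctrl libraries held 1 count in all.

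In the core of the pathway, 0 of the 5 subunits had an unadjusted p ≤ 0.05. Named with their values in view, Relb lay above both ctrl libraries, Rel and Nfkb2 lay below both, and Nfkb1 and Rela overlapped. Their log2FCs ranged from −0.30 to 0.40 with a median of −0.01. The 6 kinases had a median of 0.12, with 2 genes above and 1 below both ctrl libraries, which is near the shares over all tested genes. The 16 adaptors of the receptors had a median of 0.26, with 9 above and 2 below. The genes of the TAK1 kinase complex, listed with the adaptors, differed in direction. Tab2 and the kinase gene Map3k7 were below both ctrl libraries, with log2FCs of −0.42 (adjusted p = 0.186) and −0.23 (adjusted p = 0.355). Tab3 lay above both ctrl libraries (0.51, adjusted p = 0.179) and Tab1 overlapped (0.09, adjusted p = 0.722), both named with their values in view.

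Among 6 tested receptors, Tnfrsf1b, the second receptor of Tnf, was the only one above both ctrl libraries. It had 2851 and 3138 normalized counts in ctrl against 6137 and 6231 in Zfp276cko, a log2FC of 1.05 ± 0.10 (SE; adjusted p = 0.103), and DESeq2 called it higher. Tnfrsf1a, picked with its values in view, had 2167 and 1300 in ctrl against 1979 and 1948 in Zfp276cko, with overlap. Il6st, the signalling subunit gp130 of the receptor of interleukin-6, had 3290 and 2727 normalized counts in ctrl against 2633 and 2423 in Zfp276cko (log2FC −0.25, adjusted p = 0.443).

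Of 15 inhibitors and feedback genes beside Nfkbia and Tnfaip3, 7 were above and 2 below both ctrl libraries, and their median was 0.18. Socs3, an inhibitor of cytokine receptors that signal by STAT3, had 483 and 386 normalized counts in ctrl against 1193 and 1204 in Zfp276cko, a log2FC of 1.46 ± 0.15 (SE; adjusted p = 0.103). Those below were Otud7b, a deubiquitinase, with 3218 and 4157 normalized counts in ctrl against 2186 and 2336 in Zfp276cko, and Nfkbib, a relative of Nfkbia, with 1084 and 1351 against 874 and 821. Their log2FCs were −0.71 and −0.52 with adjusted p-values of 0.186 and 0.237. The direction of Nfkbib was therefore opposite to that of Nfkbia.

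The 25 tested targets outside the members had a median log2FC of 0.57, and 13 were above and 1 below both ctrl libraries. Cebpb, a transcription factor of acute inflammation, had 628 and 726 normalized counts in ctrl against 1421 and 1467 in Zfp276cko (log2FC 1.09, adjusted p = 0.103). The chemokine Cxcl2 had 197 and 191 against 417 and 470 (1.19, adjusted p = 0.123), and Tnfaip2 had 1608 and 1671 against 2541 and 2544 (0.63, adjusted p = 0.121). Mmp9, a matrix metalloproteinase picked with its values in view, was like Il1b highest in ctrl replicate 1, with 2018 and 106 in ctrl against 173 and 180 in Zfp276cko.

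Relatives of the member enzymes were compared as well. Ptges, the prostaglandin E synthase that acts after the cyclooxygenases, had 252 and 145 normalized counts in ctrl against 1055 and 1068 in Zfp276cko, a log2FC of 2.42 ± 0.30 (SE; adjusted p = 0.117), and was called higher by DESeq2. Ptgs1, the constitutive cyclooxygenase, had 1187 and 160 in ctrl against 181 and 186 in Zfp276cko. Ptgs2 and Ptgs1 thus overlapped between genotypes, while Ptges did not. Sod1, the cytosolic counterpart of Sod2 and also picked with its values in view, overlapped between genotypes (log2FC 0.03, adjusted p = 0.931).

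Set beside the members, the 31 interferon genes had a median log2FC of 2.72, with a range from 0.98 to 5.28. In 30 of them both Zfp276cko libraries were above both ctrl libraries. The quasi-likelihood test called 0 of the 31, and 27 had an unadjusted p ≤ 0.05. DESeq2 called 23 of them, all higher. Ifit3, an antiviral protein and the most counted of them, had 748 and 219 normalized counts in ctrl against 15808 and 14744 in Zfp276cko. Ifit1 and Usp18 followed with log2FCs of 4.57 (adjusted p = 0.123) and 3.80 (adjusted p = 0.172). Ifnb1, the gene of interferon-beta itself, had 1 count in both ctrl libraries together and 54 in the Zfp276cko libraries, a ratio of 41.2 with an exact 95% interval from 7.09 to 1657 for counting error only. At the lower end of this interval Ifnb1 still lay above the median of the interferon genes. That median of 2.72 could therefore not change, so its staying the same says nothing about how firm it is.

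The highest log2FC among the members, 2.15 for Il1rn, was thus below the median of the interferon genes with all 4 libraries. Ctrl replicate 1 was the higher ctrl library in 29 of the 31 interferon genes, with a median of 1.74 on the log2 scale between the ctrl replicates, against 0.50 for the members. Without ctrl replicate 1 the median of the interferon genes was 4.36 and that of the members 0.92. Without ctrl replicate 2 these medians were 2.35 and 0.80, and Tnf, at 3.14, was then above the median of the interferon genes.

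**Figure D4:**
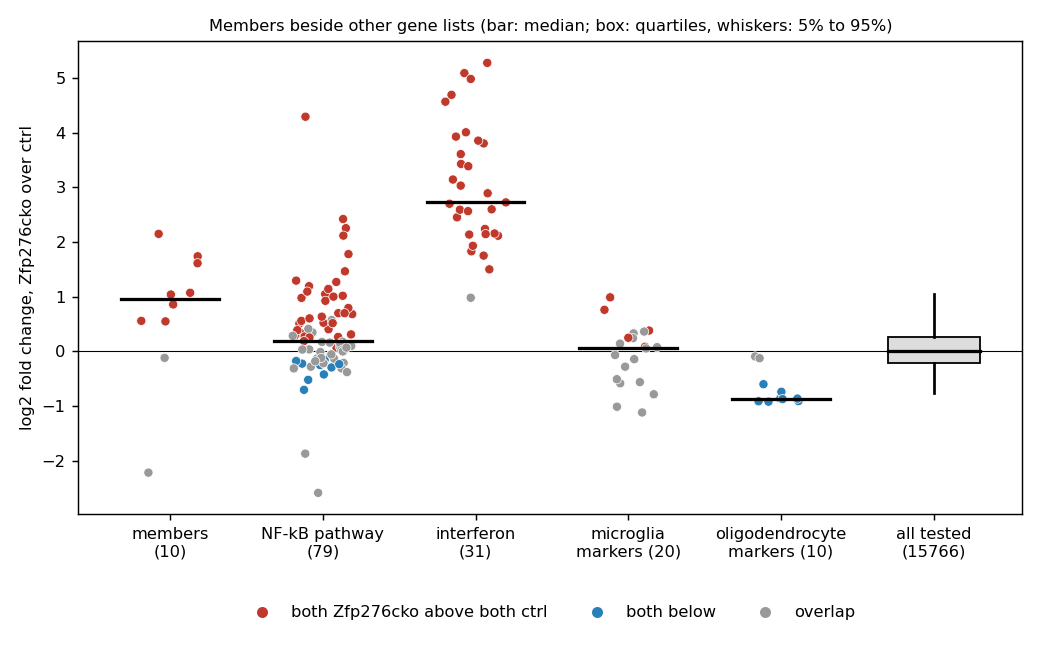
Log2 fold changes (Zfp276cko over ctrl) of the members, NF-kB pathway genes, interferon genes and markers of microglia and oligodendrocytes, each point a tested gene and each bar a median, beside a box of all 15766 tested genes (quartiles, whiskers from 5% to 95%). The medians are 0.95 for members, 0.18 for the pathway, 2.72 for interferon genes, 0.06 for microglia markers and −0.86 for oligodendrocyte markers, and the values of Csf3 and Ifnb1 rest on 1 ctrl count each.

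The cultures held RNA of cell types other than oligodendroglia, and in such bulk samples fewer cells of a type and less RNA per cell cannot be told apart. The 6 defining microglia markers (Aif1, Cx3cr1, Csf1r, Tmem119, P2ry12 and Itgam) had counts in every library, and of all 22 microglia markers Siglech and Gpr34 were listed at 0 in every library. Summed over the 22 genes, there were 218933 and 111123 normalized counts in ctrl against 140679 and 138398 in Zfp276cko. The Zfp276cko sums lay between the ctrl sums, and the median log2FC of 20 tested markers was 0.06, with 5 above and 0 below both ctrl libraries. Csf1r, the receptor of colony stimulating factor 1, had 11409 and 1850 normalized counts in ctrl against 3085 and 3016 in Zfp276cko, highest in ctrl replicate 1 and lowest in ctrl replicate 2 as in Il1b. Tmem119, P2ry12 and Itgam were also highest in ctrl replicate 1 and lowest in ctrl replicate 2. Aif1 ran the opposite way between the ctrl libraries, with 1248 and 3204 in ctrl against 2770 and 2817 in Zfp276cko. Cx3cr1 had 2290 and 2369 against 3095 and 2966, without overlap. Among the other microglia markers, Ptprc (ratio of means 1.69) and Cd68 (1.98) were the ones called higher by DESeq2.

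Expressed per 1000 normalized counts of the microglia markers, a scale chosen after the data were seen, 7 members were higher in Zfp276cko without overlap, against 18.4% of all genes. Lyz2, a lysozyme gene, made up between 39.9% and 52% of these marker counts. With Lyz2 taken out of the scale, 5 members remained without overlap, against 11.7% of all genes, and Nfkbia and Sod2 then overlapped. On the scale of all 22 markers, Lyz2 included, Il1rn had 0.634 and 1.54 in ctrl against 4.62 and 5.23 in Zfp276cko. Tnfaip3 had 2.64 and 5.28 against 8.80 and 8.71 on that scale. For Tnf the values on the same scale were 1.26 and 18.9 against 16.9 and 18.0, so that the genotypes overlapped. With all 22 markers, the ratio of means was 4.53 for Il1rn, 2.21 for Tnfaip3, 1.48 for Nfkbia and 1.55 for Sod2, near those of the normalized counts. This likeness is given for the scale with Lyz2 only and does not extend to the scale without it. The oligodendrocyte markers summed to 345997 and 458636 in ctrl against 237422 and 240692 in Zfp276cko, and 8 of the 10 lay below both ctrl libraries. Markers of fibroblasts and vessels summed to 8245 and 321 in ctrl against 480 and 427 in Zfp276cko, so that ctrl replicate 1 stood apart in these as in Il1b. The sums of neuron markers were 1210 and 4126 against 3081 and 2936, with ctrl replicate 1 low as in Tnf. For astrocyte markers they ranged from 42524 to 48711, and the defining ones (Gfap, Aqp4, Aldh1l1 and Slc1a2) had counts in every library. The part of these cells in the members' values was not tested.

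**Figure D5:**
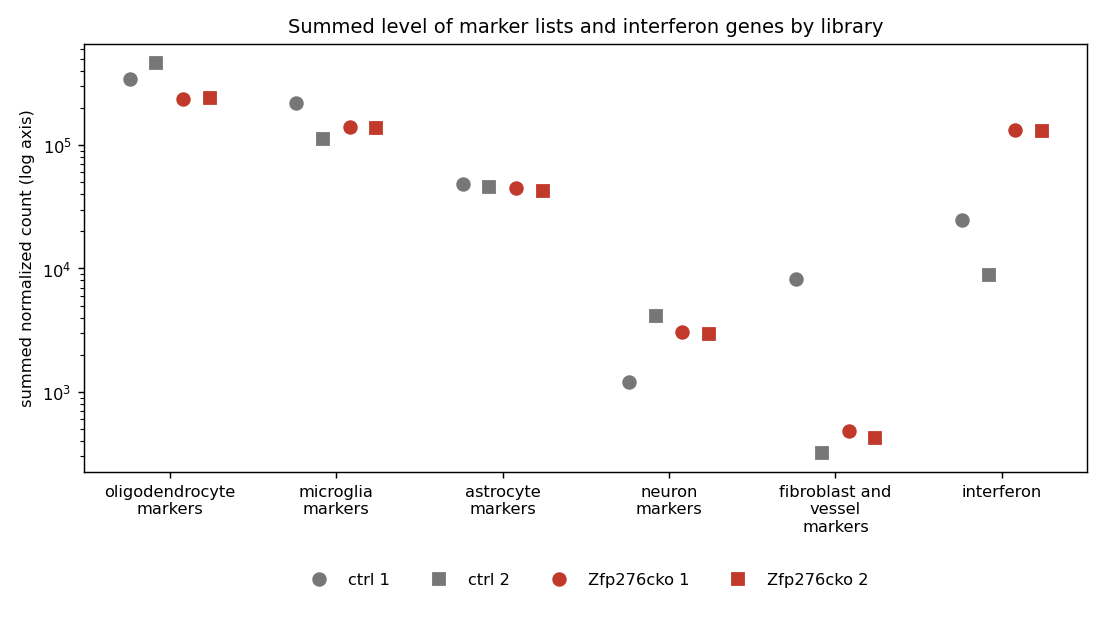
Summed normalized counts (log axis) of the marker lists of 5 cell types and of the interferon genes in each library, with ctrl in grey, Zfp276cko in red, circles for replicate 1 and squares for replicate 2. Ctrl replicate 1 is highest in microglia markers and in fibroblast and vessel markers and lowest in neuron markers, and the interferon sums of 131833 and 130018 in Zfp276cko lie above 24567 and 8829 in ctrl.

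For the most counted members, Sod2 and Tnf, the genes with the nearest pattern over the 4 libraries were looked up among 14323 others, by the root mean square difference of centred log2 normalized counts. Nearest to Sod2 were Cep55 (0.0095), Lrch3 (0.019) and Trim16 (0.020), and nearest to Tnf were Frmpd4 (0.114), Rem2 (0.117) and Gm43154 (0.131). Rem2 had 10.7 and 106 normalized counts in ctrl against 109 and 119 in Zfp276cko. Over only 4 libraries such likeness describes these libraries and no more.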

How the data were processed

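Single-end reads of stranded mRNA libraries had been mapped to mm10 with STAR 2.5.4a and counted per gene by the authors. Their methods name HTSeq for this, and the submitters' processing notes name featureCounts 1.5.1. The deposited values are raw counts, whole numbers listed by gene symbol, from 2 libraries per genotype. Of the listed genes, Adgre1 was matched through its older symbol Emr1, and of 2 entries named Itgam the higher one was used.

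Here genes were kept by filterByExpr, normalized with TMM and compared with the quasi-likelihood test of edgeR 4.0.16 (R 4.3.3) without covariates, with Benjamini-Hochberg adjustment over all 15766 genes. Standard errors are the log2 fold change divided by the square root of F, and 95% intervals use the degrees of freedom of that test. DESeq2 1.42.0, its size factors, no filter, 10 counts in every library, a replicate block and leaving out each library were alternatives. The scripts were tested on simulated data that varied less between replicates than these libraries do. That test checks the code and does not show what could be called in these data. Positions and exon lengths came from GENCODE M21, and promoters from RefSeq. Intervals on counts cover counting error only, and p-values cover the spread between these preparations. Members, lists and the rule for named genes (for the pathway, the 6 lowest p in each direction averaging 20 or more normalized counts, and for interferon, Ifnb1 and the 3 most counted) were chosen with earlier results of these data known.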

Additional observations from a re-analysis of the deposited data

How the results depend on the processing

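The number of libraries limits every comparison, and counts of calls moved the most when a ctrl library was left out. Without a filter on low counts, 3 interferon genes and 8 genes in all were called, and 0 members. DESeq2 called 2 members, 13 pathway genes, 23 interferon genes and 750 genes in all against 0 by the quasi-likelihood test, and 3 members had its adjusted p at or under 0.05 when the fold change was not considered, a count added after the data were seen. With each library left out in turn, between 0 and 7 members, 0 and 31 pathway genes, 0 and 30 interferon genes and 0 and 3052 genes in all were called, and between 2 and 9 members had an unadjusted p ≤ 0.05. Among these fits, calls appeared only without a ctrl library, with 6, 28, 30 and 2644 genes without ctrl replicate 1 and 7, 31, 29 and 3052 without ctrl replicate 2. The log2 fold change of Il1b turned to 0.78 without ctrl replicate 1 and was lowest, at −3.14, without ctrl replicate 2, and that of Ptgs2 turned to 0.057 without Zfp276cko replicate 1 and was −0.32 without Zfp276cko replicate 2. The cause was not tested. Same-numbered libraries did not deviate together (correlation 0.0067 over 14324 genes), and with the replicate block 0 members were called and 6 had an unadjusted p ≤ 0.05. The looser kappaB motif was found in promoters of 4 members as well, but in 7.25% of all promoters in place of 3.9%. Members higher without overlap were 8 on normalized counts, 7 per microglia marker counts and 5 when Lyz2 was left out of these markers, scales added after the data were seen. The size factors of DESeq2, the filter of 10 counts in every library and calls by adjusted p alone gave 0 calls as well, and with that filter, which removed Il6, 4 members had such a p.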
